A study of Mus musculus with 46 samples.

Results

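Ank, Sdc2, Matn2, Mkx, Pdgfd, Osr2, Col15a1 and Gdf6 are genes by which fibroblasts build and shape their surroundings, and their RNA was followed in mouse embryonic fibroblasts (MEFs) with and without the transcription factor ATF4. They were taken as the rows of the count table whose Ensembl identifiers name these 8 genes in GENCODE M21, among 55416 rows in all. A mean of at least 5 counts per 1000000 assigned counts (CPM, scaled by the TMM method) was required for a comparison, and 4 of the 8 genes met it: Sdc2, Ank, Matn2 and Mkx. Of the others, Pdgfd and Osr2 passed the filter on low counts and Col15a1 and Gdf6 did not, so 6 of the 8 were among the 8986 rows tested.

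The cells were wild type MEFs, purchased from a cell bank, or ATF4 KO MEFs, a line made in house by CRISPR/Cas9 targeting of Atf4 and cell sorting. Either genotype was kept for 7 h in 600 nM borrelidin, which inhibits threonyl-tRNA synthetase and so leaves that tRNA uncharged, or in the vehicle, DMSO at 1% v/v, which the borrelidin cultures also held. Wild type MEFs gave 11 vehicle and 12 borrelidin libraries, and ATF4 KO MEFs also 11 and 12, labelled as biological replicates. Since there was 1 line of each genotype, the loss of ATF4 and other differences of the lines cannot be told apart. In such bulk RNA, fewer cells that use a gene and less of its RNA per cell cannot be told apart either.

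Uncharged tRNA activates the kinase GCN2, which raises the translation of ATF4, and ATF4 then turns on genes of amino acid supply and stress. Fibroblasts secrete and organize collagens, proteoglycans and adaptor proteins of the extracellular matrix, and their regional identity is set by transcription factors and by ligands that act on neighbouring cells. Among the 8 genes, Ank exports pyrophosphate, an inhibitor of mineral deposition, and Sdc2 is a heparan sulfate proteoglycan of the cell surface. Matn2 (matrilin 2) and Col15a1 (a collagen chain of basement membrane zones) are secreted matrix proteins. Mkx is a homeobox factor of tendon, Osr2 is a zinc finger factor of limb and palate mesenchyme, and Pdgfd and Gdf6 are secreted ligands of the PDGF and BMP families.

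The assigned counts ranged from 2047362 to 3467765 per library, with a median of 2869300, and a mean share of 69.0% of reads lay in no annotated feature. Most identifiers of the table did not follow the level of the gene they name, and genes are named here only in stretches of chromosomes 4, 9, 15 and 18 in which they did. The row of Atf4 lies outside these stretches, and its own level was not analysed here. Within 3 of the 4 groups some libraries stood apart on the principal component that ranked next to the first, by a gap of 62.4% to 72% of the group's range: 8 of the 11 wild type vehicle libraries, and in ATF4 KO 3 of 11 under vehicle and 3 of 12 under borrelidin, against 0 of the 12 wild type borrelidin libraries. The component was oriented with wild type borrelidin above wild type vehicle, and the libraries below the gap were taken as standing apart. The paper describes its own component 2 as separating samples by drug. No label names what these 14 libraries share, and the main results are given with and without them. Since the 14 were picked from these same counts, on the side away from wild type with borrelidin, leaving them out is no independent check of a borrelidin response. Of the marker genes inside the stretches, the 4 listed for fibroblasts (Tpm2, Reck, Zeb1, Yap1) were all tested and their summed level lay between 1100 and 1620 CPM in every library. Singly they went in unlike directions. Under vehicle Tpm2 was lower in ATF4 KO (log2 fold change -0.32, edgeR adjusted p = 0.0071) and Yap1 higher (0.36, edgeR adjusted p = 1.2e-05). Reck and Zeb1 were not called there (-0.20 and 0.04). Without the libraries that stood apart Tpm2 lost its call under vehicle (-0.215, edgeR adjusted p = 0.28) and Yap1 kept it (0.27, edgeR adjusted p = 0.0077). Reck and Zeb1 were then called higher in ATF4 KO (0.55 and 0.51, edgeR adjusted p = 0.0088 and 0.00054). Under borrelidin Tpm2 was lower in ATF4 KO (-0.44) and Reck, Zeb1 and Yap1 were higher (1.06, 0.44 and 0.15), all called with and without those libraries. The 2 lymphocyte markers Il7r and Ccl19 summed to at most 0.372 CPM, with Ccl19 at 0 throughout. The 2 epithelial markers Esrp1 and Cdh17 summed to at most 4.66 CPM, and the 4 neuronal markers to at most 16.2 CPM. The 2 B lymphocyte markers summed to 74.4 to 111, 70.8 to 151, 79.2 to 114 and 88.4 to 145 CPM in wild type vehicle, wild type borrelidin, ATF4 KO vehicle and ATF4 KO borrelidin libraries, but differed from each other. Cd72 averaged 87.2 CPM in wild type with vehicle and 87.8 CPM in ATF4 KO with vehicle, while Pax5 averaged 0.322 and 9.57 CPM, a log2 fold change of 4.68 (edgeR adjusted p = 2.8e-13). The part of this difference in the results below was not tested.

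Per length, Sdc2 and Ank were the highest of the 8 genes over all libraries, at 93.7 and 81.5 CPM per kilobase of exon. Matn2 and Mkx followed at 6.36 and 5.28, Pdgfd at 1.53, Osr2 at 0.664, Col15a1 at 0.153 and Gdf6 at 0.014 CPM per kilobase. A library held between 259 and 1600 counts of Ank and between 556 and 1466 of Sdc2, but only 60 to 210 of Matn2 and 28 to 103 of Mkx, so single libraries measured the latter pair less precisely.

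Over all libraries Ank differed most by genotype among the 4 genes and was the one whose genotypes did not overlap. Its change with borrelidin was upward in wild type and not in ATF4 KO. Ank (ENSMUSG00000022265) lies on the plus strand of chromosome 15, from 27466677 to 27594909 of GRCm38. In wild type with vehicle its level was 316 CPM in the lowest library, 425 in the median and 446 in the highest, and in ATF4 KO with vehicle 90.8, 141 and 187 CPM. The ranges of the genotypes lay far apart: 11 of 11 ATF4 KO libraries were below every wild type library. How many of all tested rows had groups that did not overlap was not computed, here or for the genes below. The log2 fold change was -1.50 (standard error 0.09, edgeR adjusted p = 1.9e-19), and without the 14 libraries that stood apart it was -1.48 (edgeR adjusted p = 5.6e-15). With borrelidin the gap was wider. Levels ran from 436.5 over a median of 506 to 613 CPM in wild type and from 101 over 126 to 139.6 CPM in ATF4 KO, where again 12 of 12 libraries were below all of wild type (log2 fold change -2.01, standard error 0.09, edgeR adjusted p = 1.9e-25).

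The response of Ank to borrelidin was small in each genotype, and the responses differed. In wild type, 11 of 12 borrelidin libraries exceeded every vehicle library, and the means were 500.1 ± 46.9 CPM (SD, n = 12) under borrelidin against 406 ± 39.8 CPM (SD, n = 11). The log2 fold change was 0.30 (standard error 0.09, edgeR adjusted p = 0.0023). Only 3 wild type vehicle libraries remained once those that stood apart were left out, at 428, 433.5 and 436.5 CPM, and the change was then 0.21 and not called (edgeR adjusted p = 0.16). In ATF4 KO the levels with vehicle enclosed those with borrelidin, whose mean was 124 ± 10.7 CPM (SD, n = 12) against 144 ± 33.3 CPM (SD, n = 11). Its log2 fold change there was -0.22 (95% interval -0.39 to -0.04, edgeR adjusted p = 0.054), and -0.30 without the libraries that stood apart (edgeR adjusted p = 0.0026). The difference between the responses, ATF4 KO minus wild type, was -0.52 on the log2 scale (standard error 0.12, 95% interval -0.76 to -0.27, edgeR adjusted p = 0.0012), and it remained called without those libraries, at -0.51 (edgeR adjusted p = 0.0078). From highest to lowest, the means of Ank thus ran from wild type with borrelidin over wild type with vehicle to the 2 ATF4 KO groups. The difference between these 2 groups narrowly missed a call over all libraries. Ank shares its locus with Otulin, on the opposite strand at 161 CPM with no overlapping exon, and the strand setting of the counting is not given in the sources used here.

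Because ATF4 binds DNA and Ank differed most by genotype among the 4 genes, the bases before the start of Ank are shown, beside those of Pdgfd, whose medians were higher in ATF4 KO. Promoters of 3 of the 8 genes (Ank, Pdgfd, Col15a1) were in the RefSeq table (GRCm38.p6) used here. The stretches are chr15:27466427-27466676 for Ank and chr9:6168236-6168485 for Pdgfd, both on the plus strand and each 250 bases long. Capitals mark a TATAAA word in Pdgfd and, in Ank, overlapping copies of GGGCGG read on the opposite strand.
Ank: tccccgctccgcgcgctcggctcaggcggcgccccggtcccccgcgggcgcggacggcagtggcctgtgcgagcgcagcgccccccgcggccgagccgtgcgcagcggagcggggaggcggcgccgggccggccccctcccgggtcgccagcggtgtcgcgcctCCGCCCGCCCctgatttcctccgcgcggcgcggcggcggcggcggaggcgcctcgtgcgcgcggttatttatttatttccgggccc
Pdgfd: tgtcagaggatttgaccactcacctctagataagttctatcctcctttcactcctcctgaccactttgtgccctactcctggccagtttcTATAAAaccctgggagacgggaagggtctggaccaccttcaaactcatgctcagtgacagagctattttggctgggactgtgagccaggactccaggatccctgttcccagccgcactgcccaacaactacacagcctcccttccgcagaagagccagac
The Ank stretch was 81.2% G or C and the Pdgfd stretch 53.6%. The words ATTGCATCA, ATTTCATCA, GTTGCATCA and GTTTCATCA, forms of the element that ATF4 binds with C/EBP factors, were searched on both strands from 250 bases before to 50 after each start, as were the cyclic AMP response element TGACGTCA, TATAAA and GGGCGG. The ATF4 words occurred in 0.838% of 32817 promoters of this length and TGACGTCA in 1.79%, and neither was found in the 3 genes' windows. TATAAA occurred in 13.6% and GGGCGG in 35.6% of all promoters. The Pdgfd match starts at position -160 and the Ank matches at positions -86 and -82, counted from the RefSeq start that follows each stretch. For Ank this is also the start in GENCODE M21, but for Pdgfd it lies before the GENCODE M21 start at 6168584. Such matches describe letters in these windows and not sites that a factor uses.

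**Figure D1:**
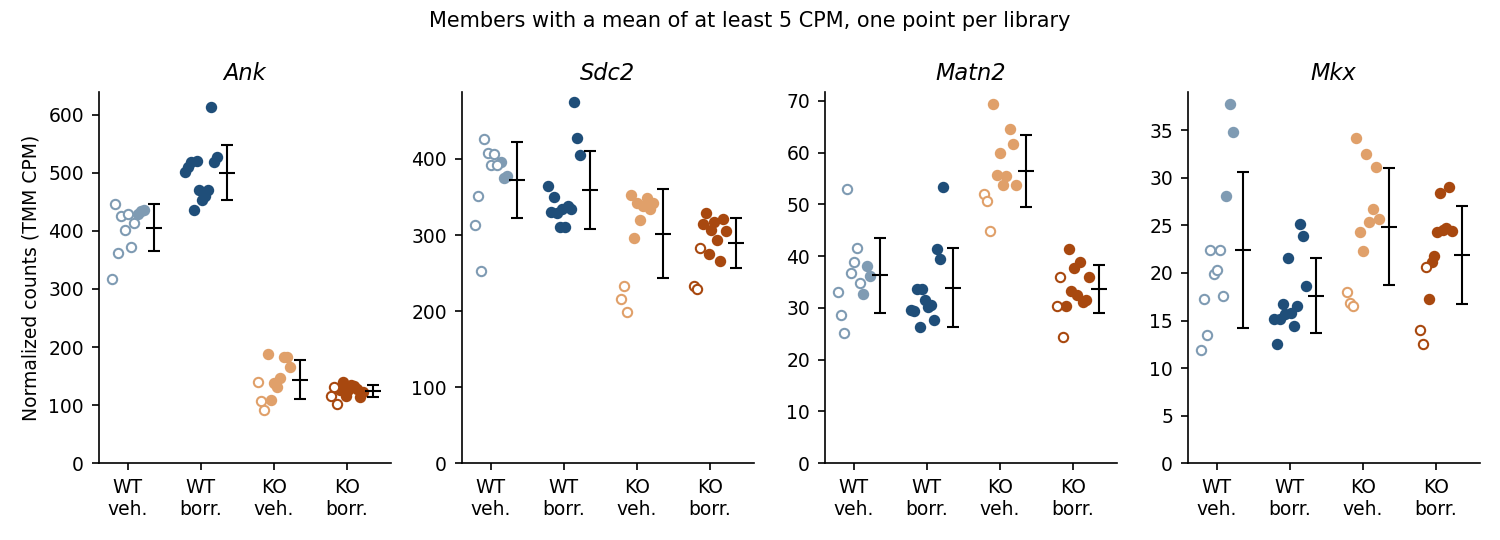
TMM-scaled CPM of Ank, Sdc2, Matn2 and Mkx (vertical axes, linear, each gene on its own scale) in the 4 groups, 1 point per library with the mean ± SD as bars. Open points are the libraries that stood apart. Ank in ATF4 KO stays at or below 187 CPM in every library, while no wild type library is below 316 CPM, and Matn2 with vehicle is highest in ATF4 KO.

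Matn2 was higher in ATF4 KO than in wild type under vehicle. In ATF4 KO it was lower with borrelidin than with vehicle, and under borrelidin the genotypes did not differ beyond their spread. Matn2 (ENSMUSG00000022324, chromosome 15, 34306677 to 34436273, plus strand) had 25.2 CPM in the lowest, 36.1 in the median and 53.0 in the highest library of wild type with vehicle. In ATF4 KO with vehicle these values were 44.8, 55.46 and 69.5 CPM, and 8 of 11 libraries exceeded every wild type library. The log2 fold change was 0.64 (standard error 0.10, edgeR adjusted p = 2.4e-06), and 0.73 without the libraries that stood apart (edgeR adjusted p = 0.00025), where 8 of 8 ATF4 KO libraries exceeded the 3 of wild type.

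With borrelidin, Matn2 in ATF4 KO was 24.3 CPM in the lowest, 32.9 in the median and 41.4 in the highest library. All 12 libraries were below all 11 of ATF4 KO with vehicle, a log2 fold change of -0.75 (standard error 0.10, edgeR adjusted p = 1.2e-07), and this fall was -0.77 without the libraries that stood apart (edgeR adjusted p = 9.8e-08). In wild type with borrelidin the levels were 26.3, 31.1 and 53.4 CPM and overlapped those with vehicle (log2 fold change -0.10, 95% interval -0.31 to 0.11, edgeR adjusted p = 0.41). The responses differed between the genotypes by -0.65 on the log2 scale (standard error 0.15, edgeR adjusted p = 0.00077), and by -0.69 without the libraries that stood apart (edgeR adjusted p = 0.0082). Under borrelidin the genotypes had means of 33.9 and 33.6 CPM in wild type and ATF4 KO, and the interval of their log2 difference was -0.22 to 0.20. In the order of the means, ATF4 KO with vehicle came first for Matn2, and the neighbours among the other 3 groups did not differ beyond their spread. Exons of Matn2 overlap those of 9430069I07Rik on the opposite strand, whose own row averaged 0.192 CPM.

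Sdc2 was slightly lower in ATF4 KO, and no change with borrelidin was called over all libraries. Sdc2 (ENSMUSG00000022261, chromosome 15, 32920723 to 33034935, plus strand) ran from 253 over a median of 392 to 427 CPM in wild type with vehicle and from 198.5 over 335 to 353 CPM in ATF4 KO with vehicle. The ranges overlapped, with 3 of 11 ATF4 KO libraries below all of wild type. These 3 were the libraries of that group that stood apart, at 198.5 to 233 CPM, and the other 8 lay between 296 and 353 CPM. The log2 fold change was -0.30 (standard error 0.09, edgeR adjusted p = 0.0098), but it was -0.20 and not called without the libraries that stood apart (edgeR adjusted p = 0.14), although 8 of 8 ATF4 KO libraries were then below the 3 of wild type. It was also -0.25 and not called without the filter on low counts (edgeR adjusted p = 0.13). It was called at -0.47 in a fit that blocked on the library set (edgeR adjusted p = 7.7e-06) and at -0.79 within the libraries that stood apart, taken alone (edgeR adjusted p = 2e-05). With borrelidin the levels ran from 310 over 336 to 474 CPM in wild type and from 229 over 299 to 329 CPM in ATF4 KO. There 8 of 12 ATF4 KO libraries were below all of wild type, a log2 fold change of -0.31 (edgeR adjusted p = 0.0037) that was -0.25 without the libraries that stood apart (edgeR adjusted p = 0.001). Borrelidin gave log2 fold changes of -0.05 in wild type (95% interval -0.24 to 0.13, edgeR adjusted p = 0.65) and -0.06 in ATF4 KO (95% interval -0.25 to 0.12, edgeR adjusted p = 0.66). In wild type it was -0.29 and called in a fit that blocked on the library set (edgeR adjusted p = 0.012).

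Mkx passed no test in the fit of the 4 group means over all libraries, and its values depended on which wild type vehicle libraries were used and on blocks in the fit. Mkx (ENSMUSG00000061013, chromosome 18, 6934518 to 7004780, minus strand) had 11.9 CPM in the lowest, 20.4 in the median and 37.7 in the highest library of wild type with vehicle, and 12.6, 16.1 and 25.1 CPM in wild type with borrelidin. The vehicle libraries fell into 2 ranges that did not overlap: the 8 that stood apart had 11.9 to 22.5 CPM and the other 3 had 28.1 to 37.7 CPM. Over all of them borrelidin gave a log2 fold change of -0.34 (standard error 0.16, edgeR adjusted p = 0.066). Against the 3 others alone, all 12 borrelidin libraries were lower, and the change was -0.94 (standard error 0.16, edgeR adjusted p = 2e-05). A fit over all libraries that blocked on the library set also called it, at -0.83 (edgeR adjusted p = 1.8e-06), as did one that blocked on the replicate number, at -0.32 (edgeR adjusted p = 0.013).

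In ATF4 KO, Mkx ran from 16.6 over a median of 25.4 to 34.2 CPM with vehicle and from 12.5 over 23.1 to 29.0 CPM with borrelidin, and the ranges overlapped (log2 fold change -0.19, edgeR adjusted p = 0.4). The 3 vehicle libraries of that genotype that stood apart were again its lowest, at 16.6 to 18 CPM. Under vehicle the genotypes differed by 0.16 with all libraries (edgeR adjusted p = 0.46) and by -0.27 without those that stood apart (edgeR adjusted p = 0.26). Under borrelidin, where no wild type library stood apart, ATF4 KO was higher by 0.31 (edgeR adjusted p = 0.097), and by 0.45 without the 3 libraries of that group (edgeR adjusted p = 0.0011). The difference of the responses was 0.16 (edgeR adjusted p = 0.61) and 0.72 without the libraries that stood apart (edgeR adjusted p = 0.015), and blocking on the library set gave 0.64 (edgeR adjusted p = 0.0053).

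**Figure D2:**
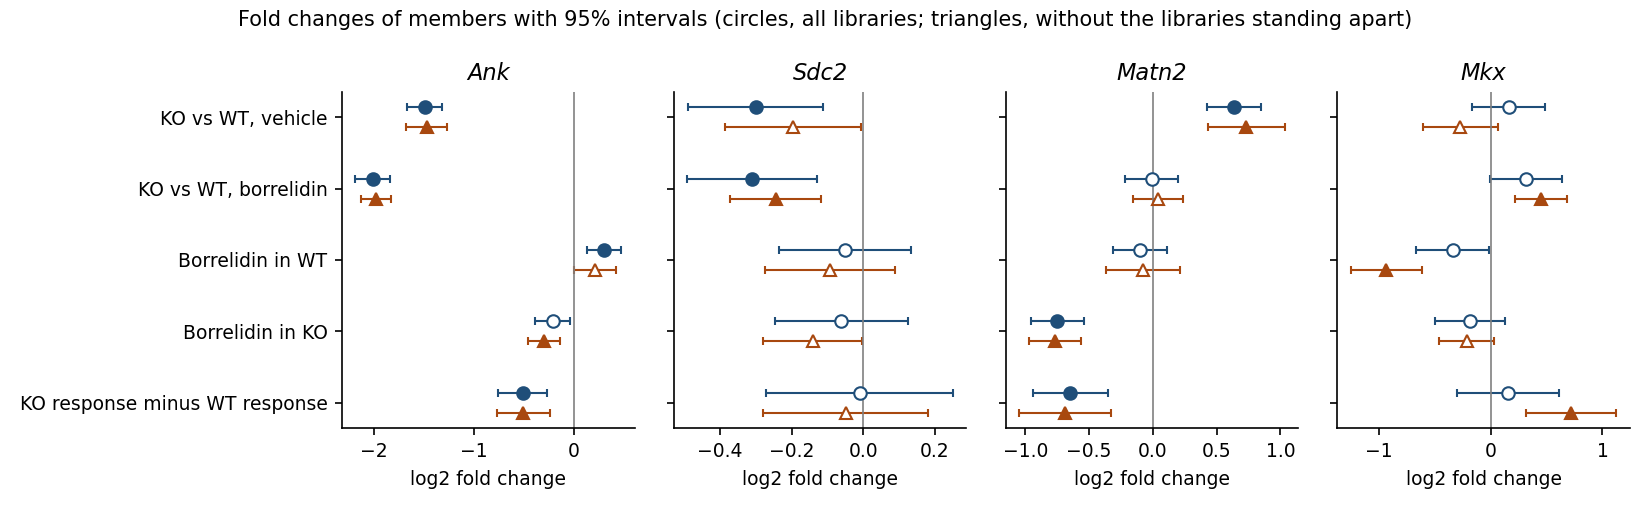
Log2 fold changes (horizontal axes, each gene on its own scale) of Ank, Sdc2, Matn2 and Mkx in 5 comparisons, with 95% intervals. Circles are fits on all 46 libraries and triangles fits on the 32 libraries that did not stand apart, filled where the edgeR adjusted p was under 0.05. Ank under vehicle lies at -1.50 and -1.48 in these fits, whereas Mkx with borrelidin in wild type moves from -0.34 to -0.94.

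Set against the whole table, 3 of the 4 genes were called between the genotypes under vehicle (1 higher and 2 lower in ATF4 KO), where 35.3% of the tested rows were called at an adjusted p under 0.05. For borrelidin in wild type 1 of 4 was called against 59.4% of rows, and for borrelidin in ATF4 KO 1 of 4 against 30.3%. For the difference of the responses 2 of 4 were called against 33.6%, and for the genotypes under borrelidin 2 of 4 against 49.8%. With so few genes these shares say little about them as a group. In a model of ATF4 activity and genotype, with activity coded here as high only in wild type with borrelidin, 1 of 4 was called (Ank, log2 fold change 0.30, edgeR adjusted p = 0.0043) against 57.5% of rows. So coded, its coefficient repeats the comparison of borrelidin in wild type, where Ank also had 0.30. At an adjusted p under 1e-10, Ank alone of the 4 was called, in both comparisons of the genotypes, where 2.63% of rows under vehicle and 5.49% under borrelidin were. That threshold was passed by 2.11% of rows for borrelidin in wild type, 0.49% for borrelidin in ATF4 KO, 0.501% for the difference of the responses and 1.31% for ATF4 activity, with 0 of the 4 genes among them in edgeR. In each of these 4 comparisons 2 of the 4 genes had an unadjusted p under 0.05 in edgeR, and DESeq2 put 1 of the 4 past the stricter threshold for borrelidin in ATF4 KO and 0 in the other 3, as limma voom did in all 4. Without the libraries that stood apart, 21.2% of rows were called between the genotypes under vehicle, 18.7% for borrelidin in wild type, 41.8% for borrelidin in ATF4 KO, 9.9% for the difference of the responses and 54.3% between the genotypes under borrelidin. Of the 4 genes, 2, 1, 2, 3 and 3 were called there, in the same order.

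Pdgfd and Osr2, under the mean of 5 CPM, are given here by their levels. Calls and fold changes of these 2 genes come only with the processing alternatives at the end, where they support nothing. Each gene passed the count filter through the genotype in which it was the higher, so that passing already favoured a difference. Pdgfd (ENSMUSG00000032006, chromosome 9, 6168584 to 6378850, plus strand) had 1.06 CPM in the lowest, 2.25 in the median and 6.30 in the highest library of wild type with vehicle, and 5.77, 8.72 and 11.5 CPM in ATF4 KO with vehicle. With borrelidin the values were 0.381, 1.58 and 4.19 CPM in wild type and 3.63, 5.44 and 10.60 CPM in ATF4 KO. The ATF4 KO groups were the higher ones, and within a treatment the ranges of the genotypes overlapped only at their edges. Osr2 (ENSMUSG00000022330, chromosome 15, 35296098 to 35303305, plus strand) showed the opposite order. Its libraries had 2.13 to 5.14 CPM (median 3.21) in wild type and 0 to 1.85 CPM (median 1.02) in ATF4 KO with vehicle, and the vehicle ranges did not overlap. With borrelidin they had 0.742 to 5.58 CPM (median 4.12) in wild type and 0.661 to 2.57 CPM (median 1.52) in ATF4 KO.

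Such levels rest on few reads, with a median of 13 counts of Pdgfd and 6 of Osr2 per library. The 3 wild type vehicle libraries of Pdgfd that did not stand apart were at 2.93, 3.85 and 6.30 CPM, above the median of 1.88 CPM of the 8 that did.

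Col15a1 and Gdf6 were at the edge of detection. Col15a1 (ENSMUSG00000028339, chromosome 4, 47208161 to 47313167, plus strand) had group medians of 1.07 CPM under vehicle and 0.406 under borrelidin in wild type, and of 1.43 and 0.342 CPM in ATF4 KO. All 4 ranges overlapped, and 3 wild type and 4 ATF4 KO libraries with borrelidin held no count. Gdf6 (ENSMUSG00000051279, chromosome 4, 9844372 to 9862345, plus strand) had 7 counts in all 46 libraries together, none of them in wild type with borrelidin. No difference between groups could be read from either gene at this depth.

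**Figure D3:**
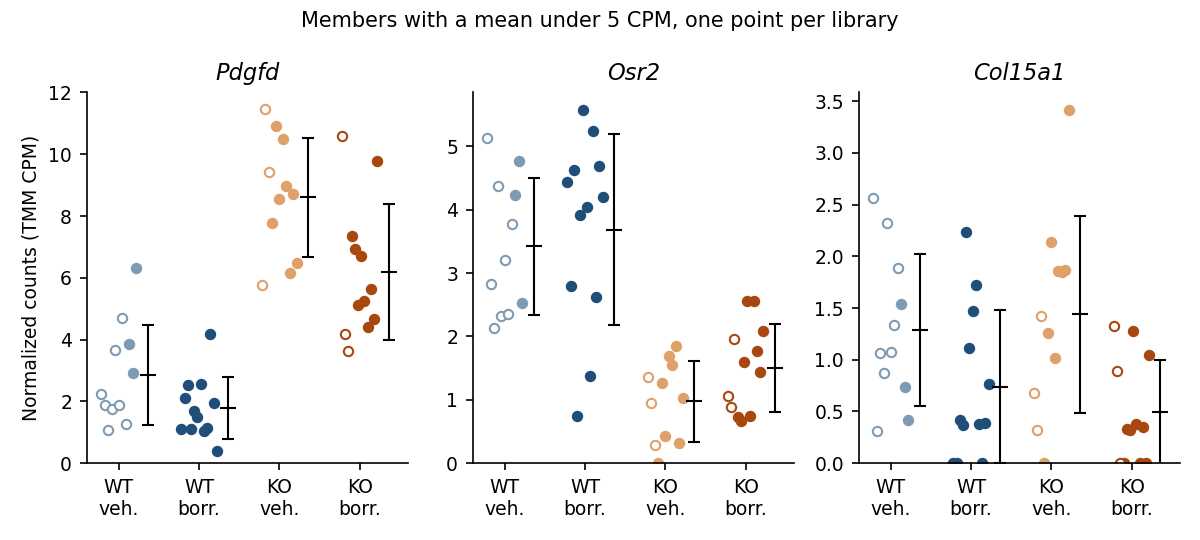
TMM-scaled CPM of Pdgfd, Osr2 and Col15a1 (vertical axes, linear, each gene on its own scale) in the 4 groups, 1 point per library with the mean ± SD as bars, cut off at 0. Open points are the libraries that stood apart. Pdgfd is higher in ATF4 KO, with medians of 8.72 and 5.44 CPM against 2.25 and 1.58 CPM in wild type, and Osr2 has medians of 3.21 and 4.12 CPM in wild type against 1.02 and 1.52 CPM in ATF4 KO.

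The other genes of the same chromosome stretches were read from 4 lists of receptors, regulators of transcription, matrix and adhesion partners, and actin genes. Of 34 listed genes 30 were tested. Between the genotypes under vehicle 11 were higher and 6 lower in ATF4 KO, which is 56.7% of those tested against 43.7% of the 327 tested genes of the stretches, with a median log2 fold change of 0.06 over the lists and near 0 over all rows (-0.001). Without the libraries that stood apart 10 were higher and 2 were lower. With borrelidin in wild type 7 were higher and 12 lower, 63.3% against 60.2% of the genes of the stretches, with a median of -0.21 (-0.06 over all rows), and without the libraries that stood apart 5 were higher and 3 lower. For borrelidin in ATF4 KO 6 were higher and 7 lower, 43.3% against 41.9% of the genes of the stretches, and without the libraries that stood apart 6 were higher and 9 lower.

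Among 7 tested receptors, 3 were higher and 2 lower in ATF4 KO under vehicle, and 2 and 1 without the libraries that stood apart. Npr3, the clearance receptor of natriuretic peptides, averaged 68.8 ± 28.8 CPM (SD, n = 11) in wild type and 16.2 ± 5.74 CPM (SD, n = 11) in ATF4 KO. Its log2 fold change was -2.09 (edgeR adjusted p = 1.2e-09), and -1.12 without the libraries that stood apart (edgeR adjusted p = 0.0017). Fzd8, a Wnt receptor, rose from 30.1 to 49.0 CPM (log2 fold change 0.70, edgeR adjusted p = 6.2e-06). With borrelidin in wild type 4 receptors were lower and 1 higher over all libraries. All 5 calls were lost without the libraries that stood apart, where Npr3 was called instead, at 1.37 (edgeR adjusted p = 6.2e-05). Npr2, the receptor of C-type natriuretic peptide, averaged 117 ± 8.35 CPM (SD, n = 12) under borrelidin against 233 ± 69.7 CPM (SD, n = 11) under vehicle (log2 fold change -0.996, edgeR adjusted p = 4e-06), but -0.18 without the libraries that stood apart (edgeR adjusted p = 0.17). Cntfr, a cytokine receptor subunit, changed by -0.38 (edgeR adjusted p = 0.0014), and by -0.32 without those libraries (edgeR adjusted p = 0.15). Fzd8 went from -0.32 (edgeR adjusted p = 0.021) to -0.19 (edgeR adjusted p = 0.56).

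Of 7 tested regulators, 2 were higher and 3 lower in ATF4 KO under vehicle, and 3 and 1 without the libraries that stood apart. With borrelidin in wild type 1 was higher and 2 lower, and 2 and 1 without those libraries. Klf4, a zinc finger factor of stress and differentiation, averaged 29.9 ± 6.71 CPM (SD, n = 11) in wild type and 18.5 ± 3.91 CPM (SD, n = 11) in ATF4 KO (log2 fold change -0.69, edgeR adjusted p = 1.6e-05). With borrelidin in wild type it rose to 76.4 ± 10.4 CPM (SD, n = 12), a log2 fold change of 1.35 (edgeR adjusted p = 2.4e-13) that was 1.49 without the libraries that stood apart (edgeR adjusted p = 5.1e-10). Chd7, a chromatin remodeller, was lower in ATF4 KO by a log2 fold change of -0.81 (edgeR adjusted p = 1.1e-05), but by -0.24 without the libraries that stood apart (edgeR adjusted p = 0.37). Yap1, the coactivator of the Hippo pathway, was higher by 0.36 (edgeR adjusted p = 1.2e-05). Zeb1, a repressor of epithelial genes, changed by -0.36 with borrelidin in wild type (edgeR adjusted p = 0.00076), and its value was 0.05 without those libraries (edgeR adjusted p = 0.78).

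Of 9 tested matrix and adhesion partners, 3 were called under vehicle (33.3%, against 43.7% of the genes of the stretches), all higher in ATF4 KO. Without the libraries that stood apart 3 were called too, but not the same 3. Asph went from 0.29 (edgeR adjusted p = 0.0016) to 0.02 (edgeR adjusted p = 0.9), and Reck from -0.20 (edgeR adjusted p = 0.31) to 0.55 (edgeR adjusted p = 0.0088). Sdcbp (syntenin), which binds the cytoplasmic tail of syndecans such as Sdc2, averaged 646 CPM in wild type and 905 CPM in ATF4 KO (log2 fold change 0.49, edgeR adjusted p = 0.00025), and its value was 0.26 without those libraries (edgeR adjusted p = 0.0049). Tln1 (talin), which links integrins to actin, rose from 2202 to 3002 CPM (log2 fold change 0.45, edgeR adjusted p = 4.6e-05, and 0.70 without those libraries). With borrelidin in wild type 4 were higher and 2 lower over all libraries, but 1 and 1 without those that stood apart. Sdcbp then went from 0.36 (edgeR adjusted p = 0.0031) to -0.03 (edgeR adjusted p = 0.83), and Tln1 from -0.44 (edgeR adjusted p = 2.7e-05) to -0.18 (edgeR adjusted p = 0.17). Cdh10, a cadherin, averaged 1.75 CPM with vehicle and 5.78 CPM with borrelidin (log2 fold change 1.70, edgeR adjusted p = 1.3e-06). Without the libraries that stood apart its value was 1.63 (edgeR adjusted p = 0.002).

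Of 7 tested actin and contractile genes, 3 were higher and 1 lower in ATF4 KO under vehicle, and 2 and 0 without the libraries that stood apart. With borrelidin in wild type 1 was higher and 4 lower, and 1 and 1 without those libraries. Rock1, a kinase that promotes actomyosin contraction, averaged 296 ± 27.7 CPM (SD, n = 11) in wild type and 391 ± 32.9 CPM (SD, n = 11) in ATF4 KO (log2 fold change 0.40, edgeR adjusted p = 2.3e-05). Basp1, a membrane protein of the cell cortex, was higher by 0.43 in ATF4 KO (edgeR adjusted p = 0.0048) and by 0.57 with borrelidin in wild type (edgeR adjusted p = 9.6e-05), and neither was called without the libraries that stood apart (0.25 and 0.24, edgeR adjusted p = 0.068 and 0.075). Svil, an actin binding protein, fell from 148.5 to 91.6 CPM with borrelidin in wild type (log2 fold change -0.70, edgeR adjusted p = 8.4e-07), but was at -0.10 without the libraries that stood apart (edgeR adjusted p = 0.55).

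**Figure D4:**
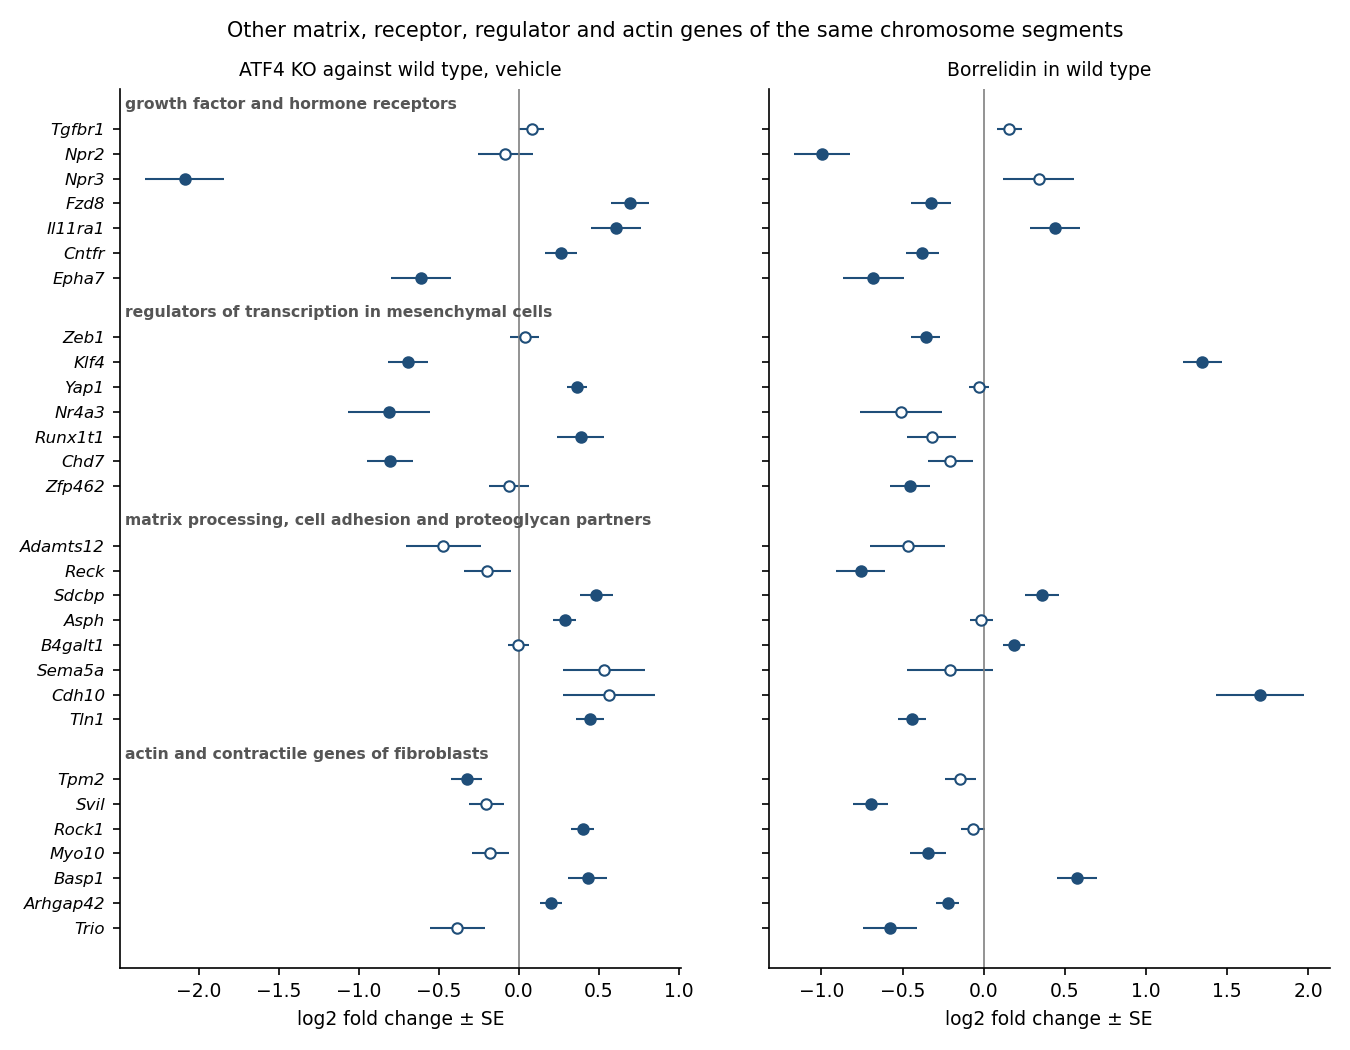
Log2 fold changes ± standard error (horizontal axes) of 29 of the 30 tested genes of the 4 lists, for ATF4 KO against wild type under vehicle on the left and borrelidin in wild type on the right, over all 46 libraries. Filled points had an edgeR adjusted p under 0.05. Npr3 lies lowest on the left at -2.09, and Cdh10 and Klf4 lie highest on the right at 1.70 and 1.35.

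Across the 46 libraries, which share their groups, the levels of the members (log2 of CPM + 1) went together only in part. Ank and Sdc2 had a Pearson correlation of 0.67, Matn2 and Mkx of 0.48 and Ank and Matn2 of -0.29. Of the 327 tested genes of the stretches, Mmp3 was the most like Ank (r = 0.95). Mmp3, a secreted metalloproteinase that cleaves matrix proteins, averaged 7.81 CPM under vehicle and 14.1 under borrelidin in wild type, but 0.489 and 0.435 CPM in ATF4 KO. Pop1, a subunit of RNase P, came next (r = 0.93, with means of 311, 414, 194 and 186 CPM in the same order). Matn2 was most like Cpne3 (r = 0.67) and Nipsnap3b (r = 0.67), Sdc2 most like Rai14 (r = 0.79) and Slc44a1 (r = 0.77), and Mkx most like Melk (r = 0.76) and Nipsnap3b (r = 0.72). These values describe the libraries, carry the differences between groups with them and have no test.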

How the data were processed

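RNA of MEFs was sequenced in 46 libraries of 4 groups (genotype by treatment), grouped by their labels. After alignment with HISAT2 the authors deposited raw counts, 1 row per gene identifier, neither normalized nor pooled. HTSeq and mm10 are named in the submitters' processing notes, and fastp and feature counts in the study's methods. Their versions, strand setting and annotation were not given in the sources used here. Of 55416 identifiers 33929 had counts and 52083 were found in GENCODE M21 (GRCm38). The 5 closing rows, which name no gene, were left out of library sizes and tests and hold, for reads in no feature, 69.0% on average.

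Mean row levels were set against mean gene levels listed by the study. Inside the members' stretches r was 0.98 over 44 genes and 100.0% lay 1 to 4 log2 units above them, which describes the stretches and is no test, since they were chosen by such matches. Elsewhere r was 0.15 over 1769 genes and 10.8% did.

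Counts were tested with edgeR 4.0.16 in R 4.3.3 (TMM, filterByExpr, quasi-likelihood, 8986 rows, Benjamini-Hochberg over all of them), with contrasts of the 4 group means, the difference of the responses, and a model of ATF4 activity with genotype, a design the study names, with activity coded here as high only in wild type with borrelidin. A call is an adjusted p under 0.05, and a stricter one under 1e-10. The script was tested on simulated data. Results were also computed with median ratio scaling, no filter, DESeq2 1.42.0, limma voom (limma 3.58.1), the replicate number or library set as a block, the compared groups alone, and leaving libraries out. Principal components used the 500 most variable rows (64.0% and 22.2% of the variance), and libraries stood apart where they lay below a gap that exceeded 50% of their group's range. Tables were made in Python 3.11.15. No libraries of a group were alike within sampling noise (the smallest chi-square was 1.96 per degree of freedom). All 11 same-numbered pairs of ATF4 KO libraries deviated together (correlation over 0.1, from 0.18 to 0.78). Only 5 of 10 pairs did for the genotypes under vehicle, 2 of 11 for borrelidin in wild type and 3 of 12 for the genotypes under borrelidin. In ATF4 KO both libraries of each such pair also lay in the same library set, and libraries of unlike number were not compared. Whether the numbers pair samples was therefore not shown.

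The genes named were the 8 members, the list genes among the 2 smallest p of their list for genotype under vehicle or for borrelidin in wild type, and the 2 genes most like each member. 1 such list gene is not reported here. The members, lists and tests were chosen with earlier results of these data known.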

Additional observations from a re-analysis of the deposited data

Results flagged for a closer look

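The response to borrelidin differed between the genotypes for 2 of the 4 genes, by a test of the difference itself in the edgeR fit over all libraries. For Ank, the response of ATF4 KO minus that of wild type was -0.52 on the log2 scale (edgeR adjusted p = 0.0012). For Matn2 it was -0.65 (edgeR adjusted p = 0.00077), with 12 of 12 ATF4 KO libraries lower with borrelidin than all with vehicle. The difference was called for 33.6% of all rows tested.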

How the results depend on the processing

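Of 208 values of the 4 genes under the alternatives, 169 kept their direction and their side of the 0.05 threshold, 18 gained a call, 7 lost it and 14 changed sign. The values that changed sign were not called over all libraries. The calls of Ank and Matn2 between the genotypes and of both for the difference of the responses were not lost, except that Matn2 under vehicle missed the threshold in the libraries standing apart taken alone (0.40, edgeR adjusted p = 0.062). At an adjusted p under 1e-10 edgeR called 1 of the 4 genes between the genotypes under vehicle, 1 under borrelidin and 0 for borrelidin in wild type, borrelidin in ATF4 KO, the difference of the responses and ATF4 activity, where 2 had an unadjusted p under 0.05 in each. With Pdgfd and Osr2 included, which was chosen after seeing the data, the number called at 0.05 was 5 for the genotypes under vehicle, 4 under borrelidin, 2 for borrelidin in wild type and 2 for ATF4 activity. These counts support nothing, since each of the 2 passed the count filter through the genotype in which it was the higher.

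For borrelidin in wild type 2 genes were called with the replicate number as a block, with that block in the compared groups alone and with the library set as a block, and for ATF4 activity 2 with either block. Under the replicate block Mkx gained its call there (-0.32, edgeR adjusted p = 0.013) and between the genotypes under borrelidin (0.31, edgeR adjusted p = 0.014; 0.33 and p = 0.038 from the compared groups alone without the block). Whether the numbers pair samples in any of the groups was not shown. In the comparison of the ATF4 KO groups the block changed no call of the 4 genes. For borrelidin in ATF4 KO 2 were called without the libraries standing apart and with the library set as a block, when Ank joined Matn2. With the latter block Ank in wild type was at 0.13 (edgeR adjusted p = 0.28) and Mkx at -0.83 (edgeR adjusted p = 1.8e-06).

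Mkx between the genotypes under vehicle was -0.27 without the libraries standing apart, -0.16 with their set as a block and -0.11 within them alone. Within them alone, chosen after seeing the data, borrelidin in ATF4 KO gave 0.11 for Ank and 0.27 for Sdc2. Sdc2 with borrelidin in wild type was 0.009 without the count filter, as it was for ATF4 activity, and its difference of the responses was 0.006 with limma voom and 0.24 with the library set as a block. Matn2 between the genotypes under borrelidin was 0.006 with limma voom, 0.012 from the compared groups alone, 0.024 with the replicate block added, 0.041 without the libraries standing apart and 0.03 with their set as a block. Osr2 with borrelidin in wild type was -0.005 with limma voom, -0.071 without the libraries standing apart and -0.089 with their set as a block, and for ATF4 activity -0.005, -0.07 and -0.09. The cause of these changes was not tested. Both the block on the library set and the fit without those libraries rest on 3 wild type vehicle libraries. Depth limits Pdgfd, Osr2, Col15a1 and Gdf6, with a median of at most 13 counts per library.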
